A study of Mus musculus with 12 samples.

Results

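The claudins are the membrane proteins that build the strands of the tight junction, and 9 of them were followed here in mouse colonic organoids (colonoids) given hemin or vehicle. The members are *Cldn1*, *Cldn2*, *Cldn3*, *Cldn4*, *Cldn7*, *Cldn8*, *Cldn12*, *Cldn15* and *Cldn23*. They were found by gene symbol in the deposited expression table, where each matched 1 row, so that they are 9 of 54532 genes. Levels are in FPKM, the sequenced fragments of a gene scaled by its length and by a library size. In the deposited values that size was not the plain number of fragments, as described under the processing. Genes that reached an FPKM of 1 in 3 or more of the 12 libraries were tested. There were 12740 of these, among them 8 of the 9 claudins, and *Cldn1* fell short.

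Colonoids were grown from colonic epithelium of mice 8 to 12 weeks old and received vehicle or hemin, the chloride salt of ferric heme, at 200 μM for 24 hours. Controls were *Hmox1* fl/fl, which carry floxed alleles of the gene for heme oxygenase-1 (HO-1, the enzyme that degrades heme) and no Cre. The KO-labelled colonoids came from mice in which Vil1-Cre, driven by a promoter active in the epithelium of both small and large intestine, deletes these alleles. The labels give their genotype as *Hmox1* KO /Vil1 Cre, except for replicate 3 with hemin, which reads *Hmox1* fl/fl /Vil1 Cre. Each of the 4 groups held 3 libraries of poly-A mRNA. No source used here says how many mice or cultures the 3 libraries came from, so p-values measure the spread between libraries, which may be technical.

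Claudins fall into classes by what they do to the space between cells. *Cldn2* and *Cldn15* form channels for small cations and water, and both serve sodium recycling in the gut. *Cldn2* is typical of crypts and of leaky epithelia, and *Cldn15* of the small intestine. *Cldn1*, *Cldn3*, *Cldn4* and *Cldn8* are counted as sealing claudins, and *Cldn8* is a claudin of the distal colon that restricts the back-leak of sodium. *Cldn7*, which also sits along the lateral membrane, *Cldn12*, and *Cldn23*, a claudin of surface colonocytes, were kept apart, since their roles are mixed or less settled. In inflamed bowel a rise of pore-forming and a loss of sealing claudins is the pattern usually described.

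In the deposited coordinates, which are those of GRCm38 (mm10), 4 of the 9 genes lie on chromosome 5. *Cldn4* (ENSMUSG00000047501, 134945119 to 134946934, minus strand) and *Cldn3* (ENSMUSG00000070473, 134986214 to 134987472, plus strand) are neighbours 39.3 kb apart, and *Cldn15* (ENSMUSG00000001739, 136966616 to 136975858, plus strand) begins 1979 kb beyond *Cldn3*. *Cldn12* (5489537 to 5514958) is far from these on the same chromosome. *Cldn2* (ENSMUSG00000047230) spans 139800828 to 139811386 on chromosome X, *Cldn8* (ENSMUSG00000050520) spans 88560828 to 88563183 on chromosome 16, and *Cldn7* spans 69964779 to 69967885 on chromosome 11. *Cldn3*, *Cldn4*, *Cldn8* and *Cldn23* have 1 exon, so that transcript and gene coincide.

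RefSeq promoter windows on GRCm38.p6 matched 7 of the 9 members by symbol, with none for *Cldn8* and *Cldn23*. The 250 bases before the RefSeq start are shown for the 3 claudins whose response to hemin differed between the genotypes. The *Cldn15* window lies inside the deposited gene, which begins at 136966616, and so before an internal start. Capitals mark matches on either strand to an AP-1 site (TGANTCA), the core of an antioxidant response element (TGACNNNGC, on which NRF2 acts) or a CDX core (TTTAT, for the intestinal factors CDX1 and CDX2).
Cldn15, chr5:136967619-136967868, plus strand: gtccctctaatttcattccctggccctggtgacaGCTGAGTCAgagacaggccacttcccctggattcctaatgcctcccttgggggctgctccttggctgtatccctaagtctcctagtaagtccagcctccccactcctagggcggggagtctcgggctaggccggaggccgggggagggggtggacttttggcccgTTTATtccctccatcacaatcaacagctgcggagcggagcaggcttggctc
Cldn2, chrX:139800558-139800807, plus strand: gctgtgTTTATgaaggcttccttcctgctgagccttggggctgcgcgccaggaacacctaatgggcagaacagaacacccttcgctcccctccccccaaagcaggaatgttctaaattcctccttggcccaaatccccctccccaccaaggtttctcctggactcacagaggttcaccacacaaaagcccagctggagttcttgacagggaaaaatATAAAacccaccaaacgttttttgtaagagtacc
Cldn4, chr5:134946935-134947184, minus strand: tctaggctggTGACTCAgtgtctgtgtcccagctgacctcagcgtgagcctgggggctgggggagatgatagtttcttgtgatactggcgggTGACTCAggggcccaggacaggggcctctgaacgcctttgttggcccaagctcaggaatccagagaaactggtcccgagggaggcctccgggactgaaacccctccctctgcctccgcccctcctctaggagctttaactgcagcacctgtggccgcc

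The *Cldn4* window held AP-1 letters at 240 and 158 bases before the start. In the *Cldn15* window, 1 run of 9 bases held both the antioxidant response element core, read on the minus strand from 216 bases, and an overlapping AP-1 match from 214 bases before the start, with a CDX core at 51 bases. The *Cldn2* window held CDX cores at 244 and 34 bases, and the letters of the nearer one are also those of a TATA-like run. Of 32817 promoter windows of the same length, 6.75% held the AP-1 letters, 10.2% the antioxidant response element core and 37.3% the CDX core. Of the 10 windows of the members, 2, 1 and 2 held these, respectively. The HNF4 letters CAAAGTCCA were in 0 of the 10 windows of the members and in 0.384% of all windows. These are matches of letters and say nothing on binding.

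Libraries held 11648801 to 25101868 fragments on genes, and the 3 libraries of control colonoids with hemin, with a median of 11859124, were the 3 shallowest. Replicate 3 of that group stood farthest from its own group, with a median absolute log2 difference of 0.27 from the other libraries of the group, 4.92% mitochondrial fragments and 17795 genes with a fragment, so results that rest on it are given without it too. The level of *Hmox1*, the targeted gene, was higher in KO-labelled than in control colonoids under hemin. FPKM is given for the gene as a whole and does not show whether its transcript was intact. In the paper, *Hmox1* expression was assessed by RT-qPCR in sorted colonic epithelial cells of both genotypes. *Hmox1* FPKM was 6.85 to 7.90 in controls and 2.11 to 3.14 in KO-labelled colonoids with vehicle, but 382 to 503 and 1271 to 1393, respectively, with hemin (log2 fold change of KO-labelled against control 1.53, adjusted p = 3.3e-06 from limma). Epithelial markers were present in every library (8 of 8 genes tested), and none of 10 markers of fibroblasts, endothelium or immune cells passed the filter, with summed FPKM of 0.0507 to 0.948.

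Both pore-forming claudins fell with hemin in both genotypes, and *Cldn15* fell far more in KO-labelled than in control colonoids. *Cldn4*, a sealing claudin, rose with hemin in KO-labelled colonoids but not detectably in controls. *Cldn8* was higher in KO-labelled colonoids with or without hemin and fell with hemin in each genotype. The abundant *Cldn3* and *Cldn7* differed by less than 2-fold in every comparison. A difference is described as passing the test at an adjusted p under 0.05, from limma on log2(FPKM + 1) with Benjamini-Hochberg adjustment over all 12740 genes, and as called where the log2 fold change was also above 1 or below −1. In bulk RNA, fewer cells of a type and less RNA per cell cannot be told apart.

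**Figure D1:**
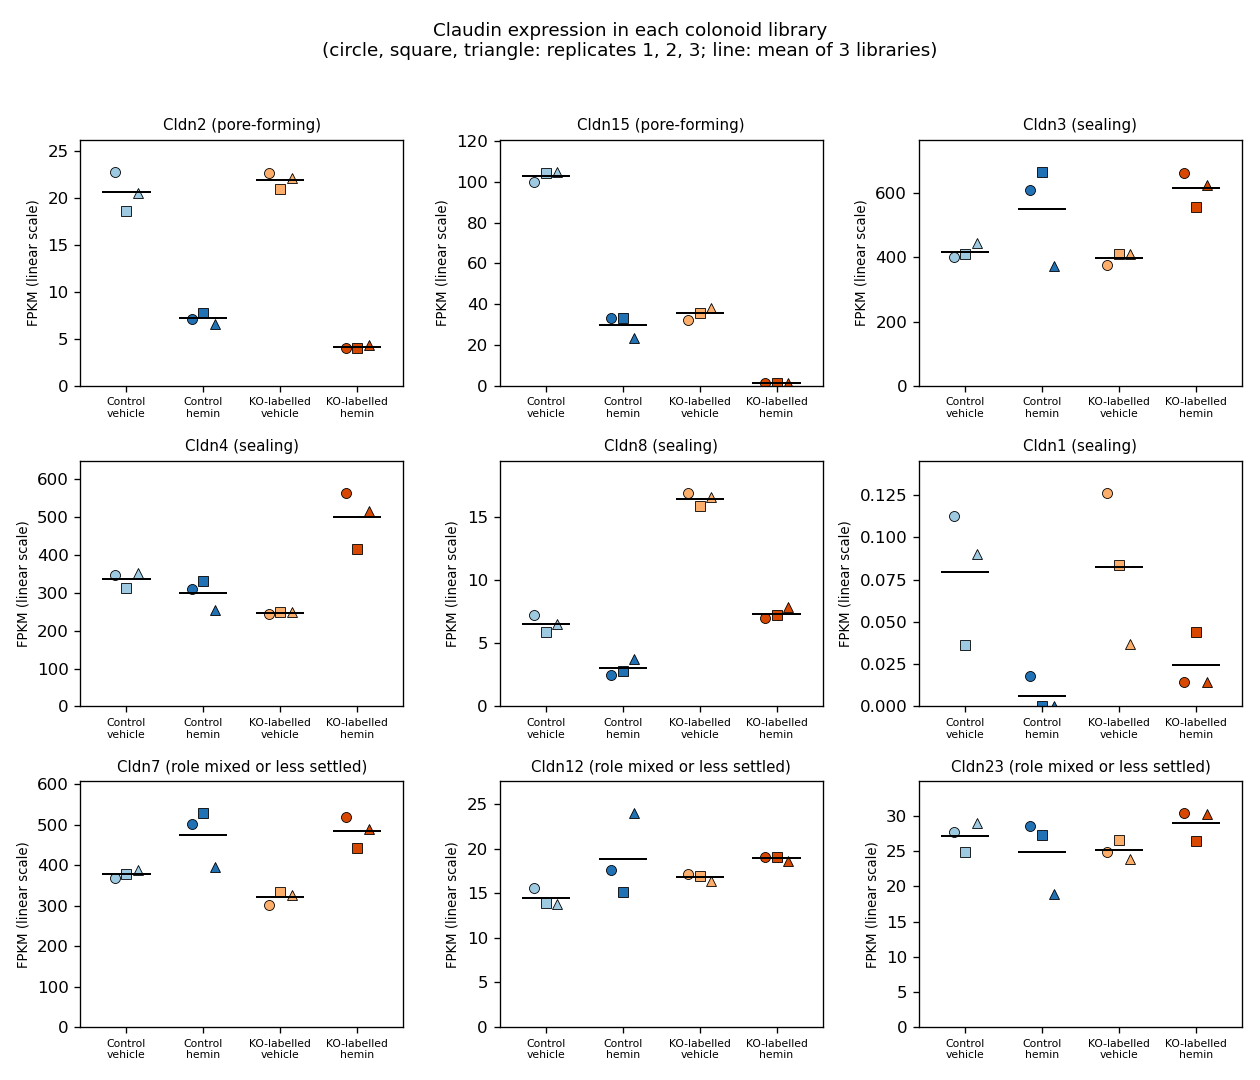
FPKM (y axis, linear, from 0, a separate scale per gene) of each of the 9 claudins in the 4 groups (x axis), with 1 point per library and a line at the mean of 3. Cldn15 stood at 99.7 to 105 in control colonoids with vehicle and at 1.31 to 1.58 in KO-labelled colonoids with hemin, while Cldn1 was at most 0.126 throughout.

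*Cldn15*, a channel for sodium ions, gave the widest range, as a fold, of the 8 claudins tested. Its FPKM was 99.7, 104 and 105 in control colonoids with vehicle and 33.1, 33.2 and 23.6 with hemin. In KO-labelled colonoids it was 32.5, 35.8 and 38.1 with vehicle and 1.47, 1.58 and 1.31 with hemin. The KO-labelled libraries without hemin thus overlapped with the control libraries with hemin, and the KO-labelled libraries with hemin lay apart from all others. The latter values rested on 40 to 79 fragments per library, against 3058 to 3783 in control colonoids with vehicle.

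Mean *Cldn15* FPKM was 3.44-fold lower with hemin in controls and 24.4-fold lower in KO-labelled colonoids. On the log2(FPKM + 1) scale, which understates changes of low values, the responses were −1.76 (SE 0.12, adjusted p = 6.5e-07 from limma) and −3.89 (SE 0.12, adjusted p = 9.8e-10). The difference between these responses was −2.13 (SE 0.16, adjusted p = 9.1e-06 from limma). Between genotypes, *Cldn15* was 2.90-fold lower in KO-labelled colonoids with vehicle and 20.6-fold lower with hemin, as ratios of mean FPKM (log2 fold changes of −1.51 and −3.64). All 5 contrasts of *Cldn15* were called.

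*Cldn2*, a cation and water channel, fell with hemin as well but did not differ detectably between the genotypes under vehicle. With vehicle its FPKM was 22.7, 18.5 and 20.5 in controls and 22.7, 20.9 and 22.1 in KO-labelled colonoids, and these ranges overlap. With hemin it was 7.14, 7.76 and 6.62 in controls and 3.97, 4.03 and 4.30 in KO-labelled colonoids, where the ranges do not overlap. The log2 fold change with hemin was −1.40 (SE 0.08, adjusted p = 2.2e-07 from limma) in controls and −2.17 (SE 0.08, adjusted p = 4.1e-09) in KO-labelled colonoids. The responses differed by −0.77 (SE 0.11, adjusted p = 6.1e-04), which passed the test without reaching the fold threshold. With hemin, *Cldn2* was lower in KO-labelled colonoids by 0.68 on the log2 scale (adjusted p = 5.9e-05). Under vehicle the genotypes differed by 0.09, with a 95% interval of −0.09 to 0.26.

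The list of crypt base and cycling genes was lower with hemin in both genotypes, as *Cldn2* was. Its summed FPKM was 120 to 130 in controls and 166 to 169 in KO-labelled colonoids with vehicle, and 43.4 to 48.7 and 58.6 to 68.5, respectively, with hemin. Of its 7 genes, all tested, *Lgr5* and *Smoc2* passed the filter only through the libraries with vehicle, so their values are a description. Of the other 5, *Mki67* and *Top2a*, markers of proliferation, and *Sox9*, which together made up most of the sum, were called lower with hemin in both genotypes, and *Ascl2* in KO-labelled colonoids, against 8.11% of all genes in controls and 12.9% in KO-labelled colonoids. Between genotypes the genes of the list differed in direction. With hemin, *Mki67*, *Top2a*, *Axin2* and *Ascl2* were higher in KO-labelled colonoids by adjusted p, against 34.4% of all genes in either direction. Only *Ascl2*, a stem cell marker, was called (mean FPKM 1.64 against 0.213), and it was under the filter in every control library with hemin. Mean FPKM of the stem cell markers *Lgr5* (0.277 against 0.781) and *Smoc2* (0.150 against 0.333) was below that of controls with hemin, as that of *Cldn2* was. With vehicle, mean FPKM in KO-labelled colonoids against controls was 4.96 against 0.894 for *Ascl2*, 8.46 against 3.18 for *Smoc2* and 2.36 against 2.45 for *Lgr5*. The part of these genes in the *Cldn2* values was not tested.

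**Figure D2:**
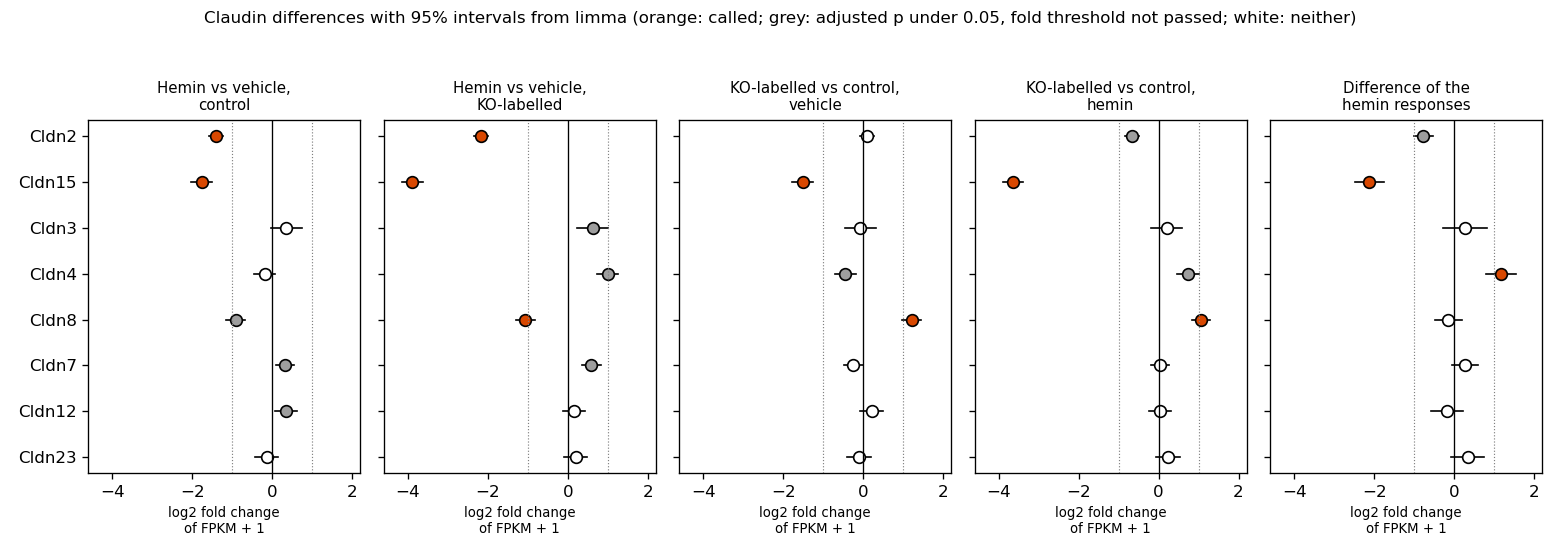
log2 fold change of FPKM + 1 (x axis) with its 95% interval for the 8 claudins tested (y axis) in 5 comparisons. Orange points were called, grey points passed the adjusted p but not the fold threshold, and white points passed neither; both pore-forming claudins lie left of 0 in both hemin comparisons.

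Among the sealing claudins, *Cldn8* had the clearest difference between the genotypes. Its FPKM was 7.21, 5.89 and 6.55 in controls and 16.9, 15.8 and 16.5 in KO-labelled colonoids with vehicle. With hemin it was 2.49, 2.84 and 3.74 in controls and 6.96, 7.22 and 7.84 in KO-labelled colonoids. The KO-labelled libraries were higher than every control library of the same treatment. The log2 fold change between genotypes was 1.21 (SE 0.11, adjusted p = 6.0e-06 from limma) with vehicle and 1.06 (SE 0.11, adjusted p = 1.9e-05) with hemin, and the latter was 0.97, no longer called, without replicate 1 of the control colonoids with hemin.

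*Cldn8* fell with hemin by 1.06 on the log2 scale in KO-labelled colonoids (adjusted p = 8.0e-06 from limma), a call. In controls it fell by 0.92 (adjusted p = 4.0e-05), just short of the fold threshold. Without replicate 3 of the control colonoids with hemin the latter value was −1.04, a call. The responses of the genotypes differed by −0.15, with a 95% interval of −0.48 to 0.19, so that no difference was detectable.

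*Cldn4* behaved otherwise. With vehicle its FPKM was 348, 314 and 352 in controls and 243, 251 and 249 in KO-labelled colonoids. With hemin it was 311, 330 and 255 in controls and 565, 416 and 518 in KO-labelled colonoids. It was thus lowest in KO-labelled colonoids with vehicle and highest in the same genotype with hemin. The hemin response was 1.00 on the log2 scale (SE 0.12, adjusted p = 3.2e-05 from limma) in KO-labelled colonoids, just under the fold threshold, and was called without replicate 2 (1.01) or 3 (1.00) with vehicle or replicate 2 with hemin (1.12). After rescaling to TPM, where each library sums to the same total, it was 0.66 (adjusted p = 0.017), or 0.77 with the gene *Gm23935* left out. It was −0.18 (SE 0.12, adjusted p = 0.23) in controls. The difference between these responses, 1.18 (SE 0.17, adjusted p = 5.4e-04), was called. Between genotypes *Cldn4* differed by 0.74 with hemin (adjusted p = 6.8e-04) and by −0.45 with vehicle (adjusted p = 0.014, or 0.052 without replicate 3 of the control colonoids with vehicle), neither past the fold threshold. The latter was −0.30 (adjusted p = 0.36) on that scale, and −0.38 (adjusted p = 0.028) without *Gm23935*.

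*Cldn3*, the most abundant member by mean FPKM in every group, was 400, 410 and 444 FPKM in controls with vehicle and 375, 410 and 408 in KO-labelled colonoids with vehicle. With hemin it was 608, 665 and 373 in controls and 663, 556 and 624 in KO-labelled colonoids. The hemin response passed the test in KO-labelled colonoids (0.62, SE 0.18, adjusted p = 0.010 from limma) and not in controls (0.35, SE 0.18, adjusted p = 0.12). Replicate 3 decided the latter: without it the response in controls was 0.61 (adjusted p = 0.00016). The difference between the responses was 0.27, with a 95% interval of −0.28 to 0.82. After rescaling to TPM the response in KO-labelled colonoids was 0.28 (adjusted p = 0.32), or 0.40 (adjusted p = 0.072) with the gene *Gm23935* left out.

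*Cldn1*, a sealing claudin of many epithelia, was near the limit of detection. It held 3 to 9 fragments per library in controls and 3 to 10 in KO-labelled colonoids with vehicle, and 0 to 1 and 1 to 5, respectively, with hemin. It was not tested.

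*Cldn7*, abundant like *Cldn3* and *Cldn4*, was 369, 379 and 389 FPKM in controls with vehicle and 502, 528 and 395 with hemin. In KO-labelled colonoids it was 302, 333 and 326 with vehicle and 519, 443 and 490 with hemin. It rose with hemin in both genotypes without reaching the fold threshold, by 0.31 (SE 0.10, adjusted p = 0.028 from limma) in controls and by 0.59 (SE 0.10, adjusted p = 5.5e-04) in KO-labelled colonoids. Neither rise passed the test after rescaling to TPM, where the values were 0.12 and 0.25. With *Gm23935*, a gene that took up to 29.0% of the FPKM sum of a library, left out of that rescaling, the value in KO-labelled colonoids was 0.37 (adjusted p = 0.011) and that in controls 0.21 (adjusted p = 0.12). In controls, leaving out any of the 3 libraries with vehicle, or replicate 1 or 2 with hemin, also raised the adjusted p above 0.05, to at most 0.092. Without replicate 3 with hemin, however, the rise in controls was larger, at 0.44 (adjusted p = 4.7e-04 from limma).

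*Cldn12* and *Cldn23* moved least. *Cldn12* FPKM ranged from 13.8 to 24.0 over all 12 libraries and passed the test once, with hemin in controls (0.34, SE 0.13, adjusted p = 0.042 from limma). The highest value, 24.0, was in replicate 3 of control colonoids with hemin, and without that library the response was 0.17 (adjusted p = 0.064). Of the 12 libraries left out in turn, 10 gave an adjusted p above 0.05 for this response. Without replicate 3 of control colonoids with hemin, *Cldn12* passed in other comparisons. Among these were KO-labelled against control with hemin (0.20, adjusted p = 0.040 from limma) and hemin in KO-labelled colonoids (0.16, adjusted p = 0.041). *Cldn23* FPKM ranged from 18.9 to 30.4, with the lowest value in the same library, and none of its 5 contrasts passed the test. Without that library *Cldn23* passed with hemin in KO-labelled colonoids (0.20, adjusted p = 0.031 from limma). Its 95% interval for the hemin response was −0.43 to 0.16 in controls and −0.10 to 0.49 in KO-labelled colonoids.

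Of the 8 claudins tested, 2 or 3 were called in each comparison. With hemin, 1 was called higher in KO-labelled than in control colonoids (*Cldn8*) and 1 lower (*Cldn15*), where 6.01% of all genes were called in either direction. By adjusted p alone the counts were 2 higher and 2 lower, against 34.4% of all genes. With vehicle, the same comparison called *Cldn8* higher and *Cldn15* lower, against 6.8% of all genes, and by adjusted p alone 1 was higher and 2 were lower, against 34.2%. The median log2 fold change of the 8 claudins was 0.12 with hemin and −0.09 with vehicle, beside 0.04 and 0.02 over all genes.

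For hemin against vehicle in controls, 0 claudins were called higher and 2 lower (*Cldn2* and *Cldn15*), against 8.11% of all genes. By adjusted p alone, 2 were higher and 3 lower, against 49.9%. In KO-labelled colonoids, 0 were called higher and 3 lower (*Cldn2*, *Cldn8* and *Cldn15*), against 12.9% of all genes, and by adjusted p alone 3 were higher and 3 lower, against 60.4%. For the difference between the hemin responses, *Cldn4* was called higher and *Cldn15* lower, against 5.13% of all genes, and by adjusted p alone 1 was higher and 2 were lower, against 23.8%. The medians over the 8 claudins were −0.16, 0.18 and 0.06, beside −0.01, 0.00 and 0.02 over all genes. The comparisons share groups, so their counts are not independent of each other. Without replicate 3 of the control colonoids with hemin, 3 claudins were called with hemin in controls, *Cldn8* being the addition, and the responses of the genotypes differed by −2.28 for *Cldn15*, −0.82 for *Cldn2* and 1.07 for *Cldn4*.

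Pore-forming claudins took a smaller share of the family with hemin and in KO-labelled colonoids. Of the summed FPKM of the 9 members, *Cldn2* and *Cldn15* made up 9.50%, 9.67% and 9.21% in controls with vehicle and 2.66%, 2.54% and 2.75% with hemin. In KO-labelled colonoids they made up 5.33%, 5.11% and 5.46% with vehicle and 0.301%, 0.381% and 0.331% with hemin. No library overlapped with another group in this share. These shares, and the ratios that follow, carry no test, since the members were chosen with results known.

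The FPKM of sealing claudins (*Cldn1*, *Cldn3*, *Cldn4* and *Cldn8*) per FPKM of pore-forming claudins was 6.17 ± 0.23 (SD, n = 3) in controls with vehicle and 22.7 ± 1.8 with hemin. In KO-labelled colonoids it was 11.6 ± 0.36 with vehicle and 202 ± 26 with hemin. On the log2 scale, the balance of pore-forming to sealing claudins differed by −1.88 with hemin in controls and by −4.12 in KO-labelled colonoids, and by −0.91 between genotypes with vehicle and −3.15 with hemin. The hemin responses thus differed by −2.24, or by −2.18 without replicate 3 of the control colonoids with hemin. Most of the movement came from the denominator of the first ratio: summed pore-forming FPKM went from 123 ± 1.5 to 37.1 ± 6.0 in controls and from 57.3 ± 2.5 to 5.55 ± 0.10 in KO-labelled colonoids. Summed sealing FPKM went from 762 ± 37 to 850 ± 193 and from 662 ± 23 to 1121 ± 130, respectively. With *Cldn12*, which some count among the pore-forming claudins, added to that class, the 4 differences were −1.43, −2.35, −0.69 and −1.61 in the order given.

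**Figure D3:**
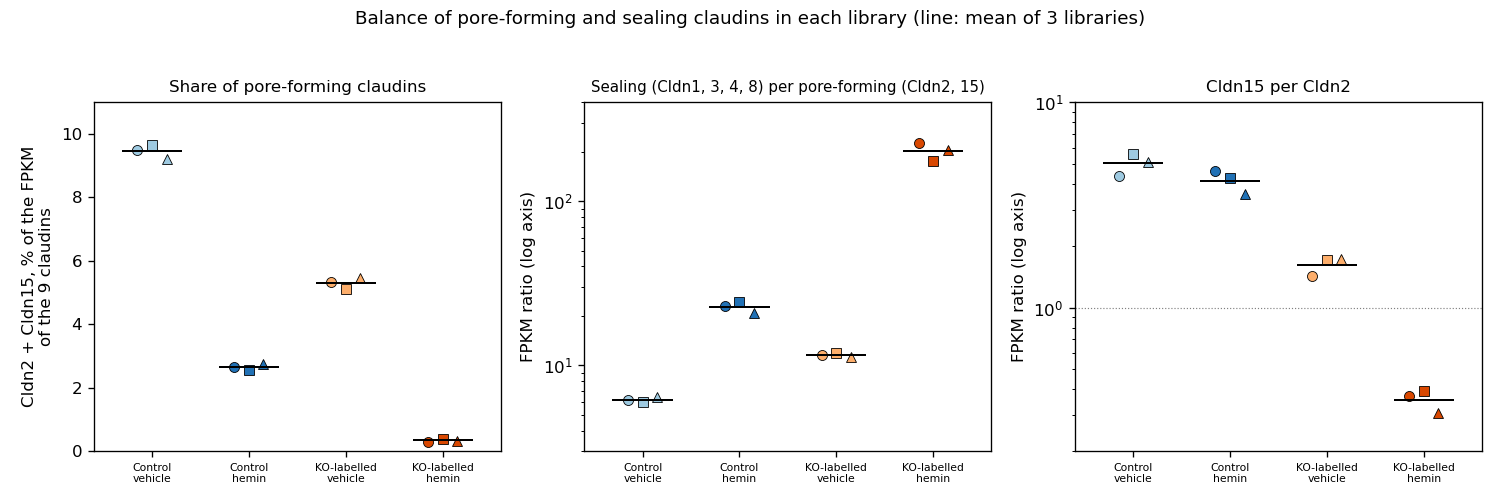
Pore-forming share of the claudin FPKM (left, %, from 0), sealing per pore-forming FPKM (middle, log axis) and Cldn15 per Cldn2 (right, log axis) in each library of the 4 groups, with a line at the mean of 3. The share was 9.21% to 9.67% in control colonoids with vehicle and 0.301% to 0.381% in KO-labelled colonoids with hemin, and Cldn15 lay under Cldn2 only in the latter group.

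Within the pore-forming class, the ratio of the members was lower in every KO-labelled library than in every control library. *Cldn15* FPKM was 4.39 to 5.62 times that of *Cldn2* in controls with vehicle and 3.57 to 4.63 times with hemin, and these ranges overlap. In KO-labelled colonoids it was 1.43 to 1.72 times with vehicle and 0.305 to 0.393 times with hemin, so that *Cldn2* became the more abundant pore-forming claudin. Within the sealing class, *Cldn4* per *Cldn3* was 0.767 to 0.870 and 0.497 to 0.684 in controls with vehicle and hemin, and 0.609 to 0.649 and 0.748 to 0.852 in KO-labelled colonoids. Across the classes, *Cldn8* per *Cldn15* went from 0.0565 to 0.0722 in controls with vehicle to 4.56 to 5.97 in KO-labelled colonoids with hemin. *Cldn3*, *Cldn4* and *Cldn7* together carried 86.6% to 96.6% of the claudin FPKM in every library.

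The order of the levels, which FPKM allows since it is per length, differed most for *Cldn15*, which was at rank 4 in 3 groups and at rank 8 in KO-labelled colonoids with hemin. With vehicle, controls had *Cldn3*, *Cldn7*, *Cldn4*, *Cldn15*, *Cldn23*, *Cldn2*, *Cldn12*, *Cldn8* and *Cldn1* in descending order, and no neighbours overlapped in range. KO-labelled colonoids with vehicle had the same order, with *Cldn12* and *Cldn8* overlapping. With hemin, controls had *Cldn12* above *Cldn2*, and the neighbours *Cldn3* and *Cldn7*, *Cldn15* and *Cldn23*, and *Cldn23* and *Cldn12* overlapped. In KO-labelled colonoids with hemin *Cldn15* stood below *Cldn8* and *Cldn2*, and *Cldn4* stood above *Cldn7* by its mean and overlapped with both *Cldn3* and *Cldn7*.

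Regional markers moved with the genotype comparisons. *Hoxb13* and *Hoxd13*, genes of the posterior colon, were listed at 0 in all 6 control libraries and at 104 to 134 and 31.2 to 59.7 FPKM in the 6 KO-labelled libraries. The summed FPKM of the posterior colon list was 6.91 to 8.22 and 10.7 to 13.9 in controls, and 194 to 205 and 207 to 208 in KO-labelled colonoids, with vehicle and hemin in each case. Of the 5 in the table, 3 were tested. *Hoxa13* was called higher in KO-labelled colonoids with and without hemin, and *Hoxb13* and *Hoxd13* passed the filter only through the KO-labelled libraries, so their values are a description. The small intestine list summed to 76.2 to 83.4 and 33.6 to 44.0 in controls and to 15.9 to 18.5 and 6.09 to 9.51 in KO-labelled colonoids. Of its 3 tested genes, *Alpi* and *Fabp2* were called lower in both genotype comparisons, and *Apoa1* passed the filter only through the KO-labelled libraries, with an FPKM of 1.64 to 6.01 there and at most 0.547 in controls. Of the intestinal factors whose core was searched in the promoters, *Cdx2* was lower in KO-labelled colonoids by 2.03 on the log2 scale with vehicle (adjusted p = 6.1e-06 from limma) and by 1.27 with hemin (adjusted p = 2.5e-04). *Cdx1* differed by 0.38 (adjusted p = 0.25) and 0.28 (adjusted p = 0.40), in the other direction and not past the test. The part of either factor in the claudin values was not tested. Genotype and these regional markers cannot be told apart in this design, also not for *Cldn8* and *Cldn15*.

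**Figure D4:**
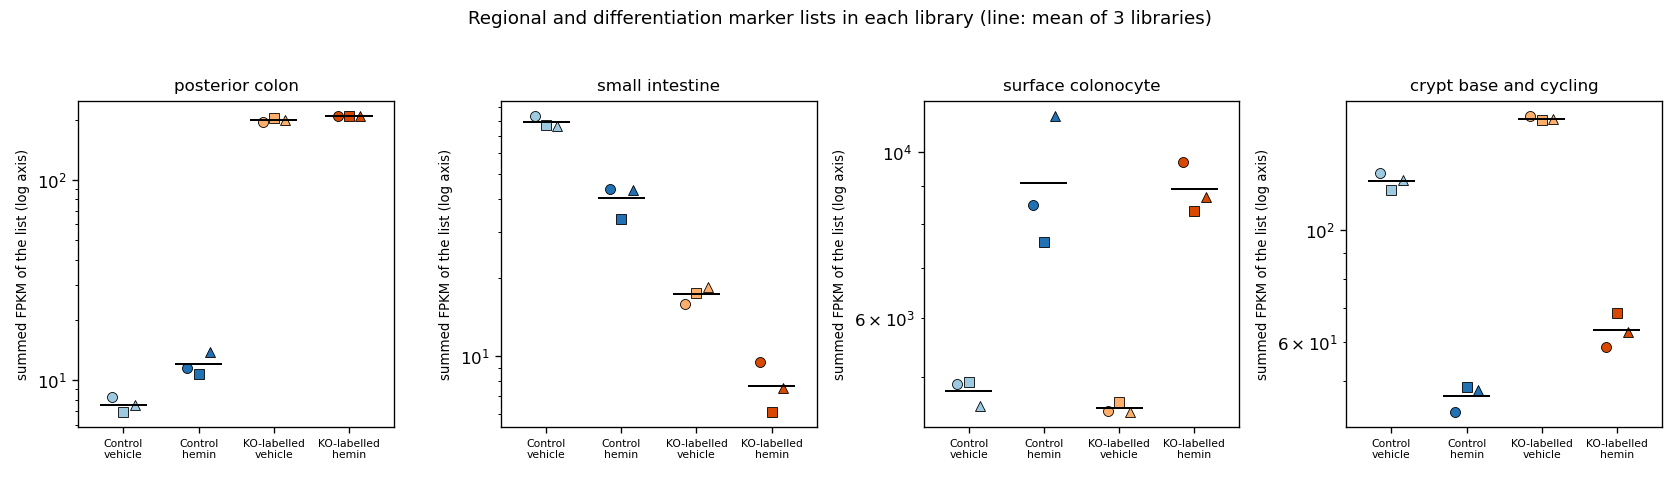
Summed FPKM (y axis, log axis) of 4 marker lists in each library of the 4 groups, with a line at the mean of 3. The posterior colon list lay at 6.91 to 13.9 in the control libraries and at 194 to 208 in the KO-labelled libraries, and the crypt base and cycling list was lower with hemin in both genotypes.

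Surface colonocyte markers gave a mixed picture beside the sealing claudins. Their summed FPKM, most of it from *Car1* (carbonic anhydrase 1) and *Lypd8* (a secreted antibacterial protein), was 4574 to 4916 and 4484 to 4629 with vehicle and 7570 to 11166 and 8343 to 9686 with hemin, in controls and KO-labelled colonoids. With hemin in KO-labelled colonoids, 3 of the 8 genes were called higher (*Car1*, *Krt20* and *Ceacam1*) and 2 lower (*Car4* and *Guca2a*), against 12.9% of all genes. In controls, *Car1* was called higher and *Aqp8* lower, against 8.11%. Between genotypes, *Aqp8* and *Car4* were called higher and *Guca2a* lower in KO-labelled colonoids with either treatment, and *Slc26a3* higher with vehicle, against 6.01% of all genes with hemin and 6.8% with vehicle. Their part in the claudin values was not tested.

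Across the 12 libraries, the tested genes outside the family with the pattern most like each of 4 members were ranked by Pearson's r of log2(FPKM + 1), among 12730 genes. The libraries fall into 4 groups, so these values describe group patterns and carry no test. For *Cldn15* they were *Fcgbp* (0.99), a mucus protein of goblet cells, *Cyp4f40* (0.99) and *Pycard* (0.99), the inflammasome adaptor. For *Cldn2* they were *Nsmce1*, *Rps3*, a ribosomal protein, and *Hnrnpa1*, an RNA-binding protein, at 0.99 to 1.00. For *Cldn8* they were *Zfp750*, a factor of epithelial differentiation, *Slfn9* and *Msh6*, a mismatch repair protein, at 0.99. For *Cldn4* they were *Tuft1*, *Ralgds* and *Unc5b*, a netrin receptor, at 0.97.

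A further 26 rows of the table have a claudin symbol, and 13 of these were at 0 in every library. Only *Cldn14*, a claudin that restricts cation flow, passed the filter. It held 47 to 56 fragments per library in KO-labelled colonoids with vehicle (FPKM 1.35 to 1.56) and 9 to 10 with hemin, and 0 to 10 and 0 in controls with vehicle and hemin. It passed the filter only through KO-labelled colonoids with vehicle, so that its values are given as a description, with no test.

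The genes of other junction proteins, a list of 47 symbols, were counted in the same way. Of the 47, 46 were in the table and 42 were tested. With hemin in KO-labelled colonoids, 24 rose and 10 fell by adjusted p, against 60.4% of all genes, and 6 were called higher and 1 lower, against 12.9%. In controls, 14 rose and 12 fell, against 49.9% of all genes, with 1 called higher and 0 lower, against 8.11%. The median log2 fold change of the list was 0.27 and 0.01, beside 0.00 and −0.01 over all genes. For the difference between the responses, 17 were higher and 3 lower by adjusted p, against 23.8% of all genes, with *Cgnl1* (paracingulin, a cytoplasmic junction protein) called higher and a median of 0.34, beside 0.02 over all genes. After rescaling to TPM, where the median of all genes moved to −0.31 with hemin in KO-labelled colonoids, 9 junction genes rose and 10 fell there, with a median of −0.058, and 1 was higher and 0 lower for the difference between the responses. In controls 5 rose and 11 fell on that scale, and 0 were called higher and 4 lower (*Cgnl1*, *Mylk*, *Ybx3* and *Nectin1*, of which the last was under the filter in every library with hemin).

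Those called higher with hemin in KO-labelled colonoids were *Ocln* (occludin), *F11r* (the adhesion molecule JAM-A), *Ildr1* (an angulin of tricellular junctions), *Igsf5*, *Mpp5* (a polarity scaffold) and *Spint1* (a protease inhibitor), and *Nectin1*, of adherens junctions, was called lower. *Nectin1* passed the filter only through the libraries with vehicle (FPKM 1.96 to 4.08, against 0.496 to 0.727 with hemin), so its calls with hemin were favoured by the filter. After rescaling to TPM, *Ildr1* (1.28) and *Spint1* (1.25) were called higher and *Nectin1* lower, and the other 4 genes were not called. In controls, *Spint1* was not called after that rescaling. *Ocln* FPKM was 27.8 to 29.8 with vehicle and 63.2 to 71.3 with hemin in KO-labelled colonoids, and 27.4 to 32.1 and 41.6 to 50.5 in controls. Its response was 1.18 (SE 0.08, adjusted p = 5.4e-07 from limma) and 0.63 (SE 0.08, adjusted p = 1.0e-04), and the responses differed by 0.55 (adjusted p = 0.0062), a difference that did not pass the test after rescaling to TPM. The scaffold *Tjp1* (ZO-1) rose by 0.50 in KO-labelled colonoids (adjusted p = 7.0e-04) and gave −0.03 in controls (adjusted p = 0.81). *Epcam*, which stabilizes *Cldn7*, rose by 0.98 and 0.78, respectively, without reaching the fold threshold. *Tjp3* (ZO-3) fell in both genotypes, by 0.40 and 0.71.

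**Figure D5:**
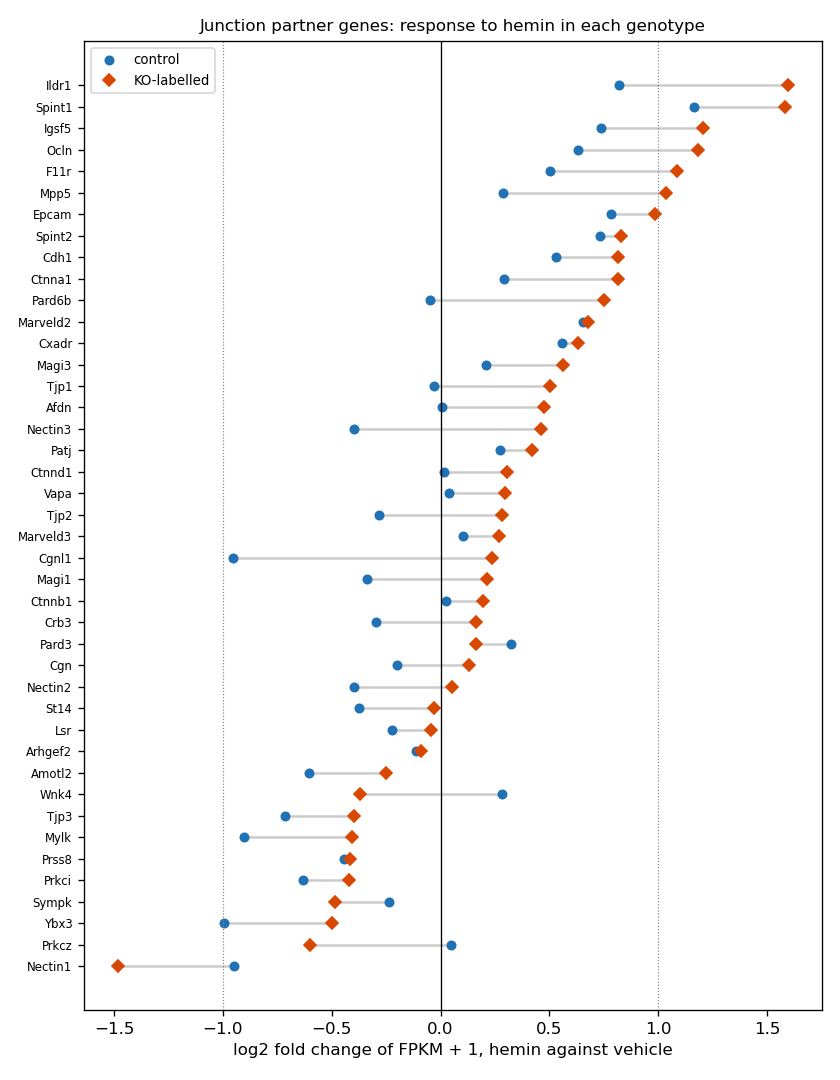
log2 fold change of FPKM + 1 with hemin against vehicle (x axis) for the 42 junction genes tested (y axis, ordered by the response in KO-labelled colonoids), with blue circles for control and orange diamonds for KO-labelled colonoids. Ildr1, Spint1, Igsf5, Ocln, F11r and Mpp5 lie above 1 in KO-labelled colonoids, and Spint1 also in controls.

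Between genotypes, 13 junction genes were higher and 7 lower by adjusted p in KO-labelled colonoids with hemin, against 34.4% of all genes, and 3 were higher and 18 lower with vehicle, against 34.2%. The medians were 0.16 and −0.17, beside 0.04 and 0.02 over all genes. After rescaling to TPM, 2 were higher and 3 lower with hemin, and 2 higher and 4 lower with vehicle. With hemin, *Lsr*, the other angulin tested, was called higher and *Mylk*, the myosin light chain kinase that opens junctions, lower, and *Lsr* was not called without replicate 3 of the control colonoids with hemin. With vehicle, 0 were called higher, and *Ildr1*, *Mylk* and *Nectin3* were called lower, against 6.01% of all genes called with hemin and 6.8% with vehicle. After rescaling to TPM, *Nectin3* was not called, *Lsr* was called higher with vehicle (1.04, adjusted p = 0.0011) and *Prkcz*, a polarity kinase, was called lower with hemin (−1.07, adjusted p = 0.0016). *Mylk* passed the filter only through the control libraries, so its calls were favoured by the filter. Its FPKM was 9.12 to 10.4 and 4.08 to 5.19 in controls with vehicle and hemin, and 0.570 to 0.668 and 0.174 to 0.253 in KO-labelled colonoids. *Lsr* FPKM was 22.5 to 34.6 in all control libraries and 56.9 to 65.5 in all KO-labelled libraries.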

How the data were processed

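Poly-A mRNA of 12 colonoid libraries was sequenced. The authors deposited FPKM for 54532 genes, with coordinates and gene lengths. The submitters' processing notes name fastp, HISAT2 2.0.5, featureCounts 1.5.0-p3 and mm10, without roles or order. Multiplied by gene length, 100% of the deposited FPKM values were whole multiples of 1 fragment (tolerance 0.01), and fragments were recovered from them. The library sizes implied by these values differed from the fragments on genes (14400182 against 15479954 in replicate 1 of KO-labelled colonoids with hemin). Median-of-ratios factors were 1.009 in every library. The deposited values were thus already on a scale of that kind, which rescaling to TPM replaces. Whether counting used strand is not given in the sources used here. Floors and fragment numbers cover counting error only, with a floor of 3 fragments.

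Groups and replicates came from the sample labels. limma 3.58.1 (R 4.3.3) was fitted to log2(FPKM + 1) for the 12740 genes that reached an FPKM of 1 in 3 or more libraries. The model had a mean for each of the 4 groups, and variances were moderated by empirical Bayes along an intensity trend. Adjusted p-values are two-sided, from limma, by the Benjamini-Hochberg method over all genes tested. Calls needed an adjusted p under 0.05 together with an absolute log2 fold change above 1. Intervals are 95% intervals from limma. Figures were drawn with Python 3.11.15, pandas 2.3.3 and matplotlib 3.10.9. Scripts were tested on simulated data.

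The members, their classes and the gene lists were chosen with earlier results of these data known. Named genes are the members, *Hmox1*, other claudins that passed the filter, junction genes called in a comparison or of the core scaffold, marker genes called between the groups of a result, and the 3 genes most correlated with each of 4 members. *Igsf5* has 2 rows, of which 1 was tested. A junction gene is not reported here and was left out of the list's counts. Alternatives were a pseudocount of 0.1, no filter, a mean FPKM of at least 5, TPM, median-of-ratios scaling, a replicate block, no trend, only the groups compared, adjusted p alone, limma-voom on the recovered fragments, other class assignments, a mean of log2 values and each library left out in turn. Median-of-ratios scaling had the same factor in every library, so it could hardly move a result. TPM without *Gm23935* was added after seeing the data. Replicate numbers did not pair the libraries.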

Additional observations from a re-analysis of the deposited data

Results flagged for a closer look

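Of the 8 claudins tested, 3 differed between the genotypes in their response to hemin, by the interaction term of limma with adjustment over all genes, which 23.8% of all genes passed. For *Cldn15* the response in KO-labelled colonoids minus that in controls was −2.13 on the log2 scale (adjusted p = 9.1e-06), and all 3 KO-labelled libraries with hemin lay below the other 9. For *Cldn4* it was 1.18 (adjusted p = 5.4e-04), with the response in KO-labelled colonoids upward and the response in controls not past the test. For *Cldn2* it was −0.77 (adjusted p = 6.1e-04), with both responses downward. The groups held 3 libraries each, too few for a test of single libraries as outliers.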

How the results depend on the processing

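The 872 recomputed log2 fold changes of claudins include those under median-of-ratios scaling, which could hardly differ. Of the 872, 849 kept their direction and whether they were called. Of these 849, the adjusted p rose past 0.05 in 29 and fell under it in 10. All 14 that turned were of claudins past no threshold in that comparison. Between genotypes with hemin, leaving out 1 library gave −0.054 to 0.36 for *Cldn3*, −0.092 to 0.12 for *Cldn7* and −0.11 to 0.20 for *Cldn12*, and TPM without *Gm23935* gave −0.019 for *Cldn7* and −0.024 for *Cldn12*. For *Cldn23* with hemin in controls the range was −0.25 to 0.040. With hemin in KO-labelled colonoids, TPM gave −0.17 for *Cldn12* and −0.13 for *Cldn23*, and without *Gm23935* −0.054 and −0.021. With vehicle, TPM gave 0.079 for *Cldn3* and 0.035 for *Cldn23* between genotypes. Under TPM the median over all genes was −0.19 and −0.31 with hemin in controls and KO-labelled colonoids and 0.16 between genotypes with vehicle; *Gm23935* alone took up to 29.0% of the FPKM sum of a library.

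By adjusted p alone, 4, 5 and 6 claudins passed between genotypes with hemin and with hemin in controls and KO-labelled colonoids, in place of 2, 2 and 3. Leaving out 1 library gave 1 to 2 in the first of these. With hemin in controls, *Cldn8* was called under a pseudocount of 0.1 (−1.10), TPM (−1.22), TPM without *Gm23935* (−1.15) and limma-voom (−1.12). *Cldn4* in KO-labelled colonoids was called without replicate 2 (1.01) or 3 (1.00) with vehicle or replicate 2 with hemin (1.12). The adjusted p of *Cldn7* and *Cldn12* in controls rose to at most 0.092 and 0.115 with a library left out. That of *Cldn7* fell to 4.7e-04 (limma) without replicate 3 of the control colonoids with hemin. Over all genes, 766 genes were called between genotypes with hemin and 866 with vehicle, 1033 with hemin in controls and 1648 in KO-labelled colonoids, and 654 for the difference of the responses. limma-voom gave 1399, 1304, 1830 and 2605 for the first 4 of these, and a pseudocount of 0.1 gave 1342 for the first and 1760 for the third. With hemin in controls and KO-labelled colonoids, TPM gave 1705 and 2737, and 1606 and 2475 without *Gm23935*. With a filter on a mean FPKM of 5, which leaves fewer genes to test, the 5 counts were 422, 392, 629, 1043 and 334.

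The pore to sealing balance stayed negative under each alternative. With *Cldn12* counted as pore-forming it was −1.61 and −0.69 between genotypes with hemin and vehicle, −1.43 and −2.35 with hemin in controls and KO-labelled colonoids, and −0.92 for the difference of the responses. With a mean of log2(FPKM + 1) it was −2.67 between genotypes with hemin, −1.37 and −3.15 with hemin, and −1.78 for the difference, and with *Cldn7* and *Cldn23* counted as sealing the latter was −2.12. Same-numbered libraries did not deviate together (mean r −0.04 over 18 pairs), and with the replicate number as a block the counts of called claudins were 2, 2, 3, 2 and 2, the same as without it, while *Cldn12* with hemin in controls had an adjusted p of 0.058. Depth limits *Cldn1* and *Cldn14*.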
